A study of Saccharomyces cerevisiae with 6 samples.

Results

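The introns of 6 budding yeast genes that act in transcription were examined: TFC3 (YAL001C), SRB2 (YHR041C), TAF14 (YPL129W), NCB2 (YDR397C), GCR1 (YPL075W) and USV1 (YPL230W). They were selected by gene name and make up 6 of the 309 introns, from 298 genes, in the count table. The assay was multiplexed primer extension sequencing (MPE-seq), a targeted RNA method whose primers anneal just past an intron, so that a read carries either the joined exons (a spliced read) or intron sequence (an unspliced read). The wild type group (WT, strain EJS1) and the group with the prp2-1 allele (strain EJS7) had 3 libraries each, replicates A, B and C. Both groups grew in YPD at 25 °C to mid-log phase and were held at 37 °C for 15 minutes before harvest, and each library started from 10 µg of RNA. The allele prp2-1 is a temperature-sensitive form of PRP2, and the WT cultures received the same shift.

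A yeast intron is recognized by the spliceosome at its 5′ splice site, at the branch site near its end and at its 3′ splice site. Prp2 is an ATPase that remodels the assembled spliceosome so that the first chemical step, attack of the branch site adenosine on the 5′ splice site, can take place. The 6 genes span several layers of the transcription machinery. Tfc3 is the largest subunit of TFIIIC, which binds the internal promoters of tRNA genes for RNA polymerase III. Srb2 (also called Med20) is a subunit of the Mediator head module, which links activators to RNA polymerase II. Taf14 is a YEATS-domain protein shared by TFIID, TFIIF and several chromatin remodelers. Ncb2 is a subunit of negative cofactor 2 (NC2), which binds the TATA-binding protein. Gcr1 activates the genes of glycolysis, and Usv1 is a zinc finger protein of the stress and carbon source response.

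The annotation of build R64 placed 5 of the 6 introns, each between the first and the second coding exon, and held a single coding exon for USV1, so no position or sequence is given for the USV1 intron. The sequences below are from the RefSeq copy of R64, 5′ to 3′, and are shown because the introns differ at the sites the spliceosome reads. Capitals mark the first 6 bases (5′ splice site), the branch site (TACTAAC or its nearest match that keeps the branch adenosine) and the last 3 bases (3′ splice site).
TFC3, chrI:151007-151096, minus strand: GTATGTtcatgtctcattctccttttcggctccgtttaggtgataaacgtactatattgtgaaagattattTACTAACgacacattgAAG
SRB2, chrVIII:189750-189850, minus strand: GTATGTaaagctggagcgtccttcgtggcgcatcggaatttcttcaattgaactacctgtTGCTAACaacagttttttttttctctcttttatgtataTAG
TAF14, chrXVI:305307-305411, plus strand: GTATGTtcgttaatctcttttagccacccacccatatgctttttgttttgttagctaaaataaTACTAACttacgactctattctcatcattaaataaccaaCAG
NCB2, chrIV:1266770-1266861, minus strand: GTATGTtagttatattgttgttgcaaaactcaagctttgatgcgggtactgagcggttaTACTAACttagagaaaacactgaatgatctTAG
GCR1, start of the intron, chrXVI:412262-412321, plus strand: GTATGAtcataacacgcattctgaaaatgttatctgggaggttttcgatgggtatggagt
GCR1, end of the intron, chrXVI:412893-413012, plus strand: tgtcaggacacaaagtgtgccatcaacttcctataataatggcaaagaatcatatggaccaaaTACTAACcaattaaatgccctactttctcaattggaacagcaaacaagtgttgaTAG

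The introns of TFC3, NCB2, SRB2 and TAF14 were 90, 92, 101 and 105 bases long, near the median of 97 bases over the 190 placed introns of genes other than ribosomal protein genes. The GCR1 intron was 751 bases long, and 3 of the 279 placed introns were longer. GCR1 was the member whose first 6 bases were GTATGA, found in 8 of the 279 placed introns, while the other placed members began with GTATGT, found in 73.1%. SRB2 was the member without an exact TACTAAC, which 82.4% of placed introns held. Its nearest match, TGCTAAC, had 1 mismatch, as did the nearest match of 16.1% of placed introns. TFC3 ended in AAG, as did 4.66% of placed introns, and its branch adenosine lay 13 bases from the intron's end, against a median of 33 over all placed introns. That distance was 27 bases in NCB2, 35 in SRB2, 36 in TAF14 and 51 in GCR1.

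All 5 placed introns interrupted the reading frame close to its start, after 8 coding bases in GCR1, 9 in TAF14, 14 in SRB2, 37 in NCB2 and 70 in TFC3. Reading from the annotated start codon into a retained intron met a stop codon inside the intron after 20 codons in TAF14, 33 in NCB2, 34 in GCR1 and 43 in TFC3. In SRB2 the first stop lay past the intron, after 50 codons. A stop inside the intron was found for 95.3% of placed introns. In GCR1 an ATG codon 185 bases before the intron's end was in frame with the second exon with no stop between them. Such an open ATG was found in 39 of the 279 placed introns, among them that of NCB2, 10 bases before its end. Translation was not measured here.

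**Figure D1:**
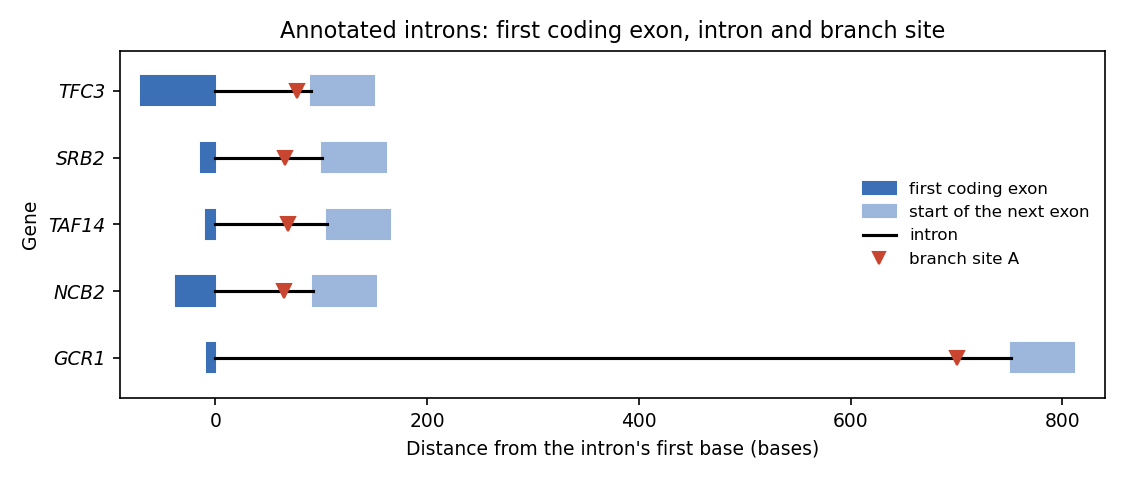
Maps of the 5 placed introns to scale, by distance in bases from the first base of the intron. Dark boxes are the first coding exon, the line is the intron, the triangle is the branch site adenosine and light boxes are the first bases of the next exon; the GCR1 intron spans 751 bases and the others 90 to 105.

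The 6 libraries held 1612685 to 2671271 counted reads, of which 1.73% to 1.88% were unspliced in WT and 7.47% to 11.0% in prp2-1, highest in prp2-1 replicate C. Over the 274 introns with a mean of at least 10 reads per library, the median unspliced percent was 3.69% ± 0.115 in WT and 47.4% ± 6.21 in prp2-1 (SD over the n = 3 libraries of a group, as for all later values). The labels do not say whether the replicates came from separate cultures, so the spread behind the p-values may be technical. The p-values of edgeR share information on spread over all tested introns and do not measure the spread of 1 intron alone. PRP2 has no intron in the table and was not checked. The 2 strains also differed outside splicing: intron 1 of the mating type gene HMRA1 (YCR097W), which encodes the a1 factor and has a near-identical copy at the mating type locus, had 16583 spliced and 448 unspliced reads in WT and 8 and 1 in prp2-1. Effects of the prp2-1 allele and of other differences between EJS1 and EJS7 cannot be told apart. The 9 listed meiotic genes and HMRA1 together held 0.274% to 0.316% of reads in WT and 0.0229% to 0.0445% in prp2-1, and HMRA1 was the 1 tested intron of that list whose total reads fell. Total reads rose in 3 meiotic genes, REC114 (log2 change 5.05, adjusted p = 1.56e-05), PCH2 (1.09, 0.0230) and MND1 (1.06, 0.0327) (edgeR). Those of REC114 went from 4.81 to 169 reads per 1000000. The rises were of unspliced reads. Spliced and unspliced reads went from 9 and 23 in WT to 1 and 1135 in prp2-1 for REC114. They went from 18 and 22 to 3 and 87 for PCH2, and from 2 and 38 to 1 and 89 for MND1.

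The first comparison asked what percent of each intron's reads was unspliced in WT cells and how far that percent rose in prp2-1. Reads of RNA made before and during the shift were not separated. All 6 introns became more unspliced in prp2-1, with no overlap between the groups, and they ended between 67.4% and 99.98% unspliced. The rise was called for 6 of 6 introns by the quasi-likelihood test of edgeR on the ratio of unspliced to spliced reads (adjusted p under 0.05 over 274 introns). This share is near the background, since 93.4% of all tested introns were called higher and 92.0% had every prp2-1 library above every WT library. The members' median log2 change of the ratio was 6.59, beside 4.64 over all tested introns and 5.39 over the 171 tested introns of genes other than ribosomal protein genes.

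In WT the members were well apart from each other. TFC3 was the most completely spliced, with 2.81%, 2.26% and 1.25% unspliced in replicates A, B and C (2.11% ± 0.790). TAF14 followed with 10.7%, 11.7% and 10.4% (10.9% ± 0.700). NCB2, with 26.4%, 32.8% and 28.2% (29.1% ± 3.25), SRB2, with 41.6%, 39.9% and 36.7% (39.4% ± 2.45), and USV1, with 42.9%, 43.8% and 48.8% (45.2% ± 3.18), lay higher. The ranges over libraries of neighbours in this order did not overlap. GCR1 was the highest, at 59.5%, 59.4% and 59.1% (59.3% ± 0.195), so that more than 1 read in 2 still carried the intron in WT. All members except TFC3 exceeded the WT median of 3.69% over all tested introns, and TFC3 alone lay below the median of 10.4% ± 0.435 over introns outside ribosomal protein genes.

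**Figure D2:**
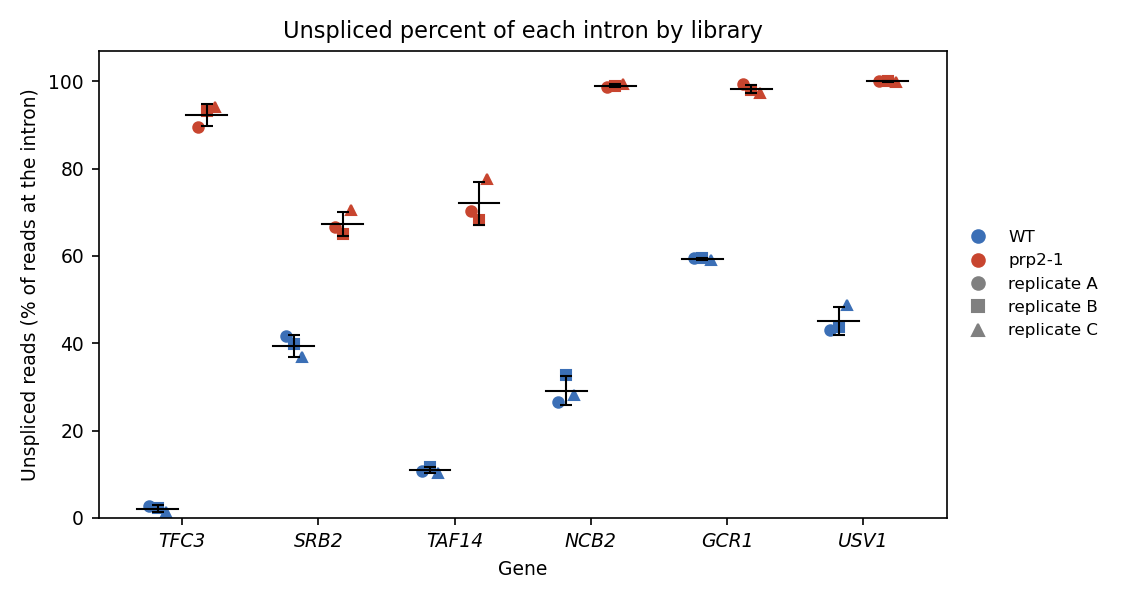
Unspliced reads as a percent of the reads at each intron (vertical axis), by gene (horizontal axis). Each symbol is 1 library, blue for WT and red for prp2-1, with the mean (bar) and SD of 3 libraries; GCR1 had the highest level in WT (59.3%) and SRB2 the lowest in prp2-1 (67.4%).

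TFC3 had the widest swing in percent. It had 1141, 1597 and 1890 spliced reads in WT replicates A, B and C, beside 33, 37 and 24 unspliced reads. In prp2-1 it had 23, 18 and 24 spliced reads, beside 196, 250 and 382 unspliced reads. The order of the 2 RNA forms was thus inverted in every library, and the unspliced percent reached 92.3% ± 2.45, a gain of 90.2 percentage points. The log2 change of the ratio was 9.22 (SE 0.45 between libraries; adjusted p = 3.69e-15, edgeR), the twelfth largest of 274. From summed reads the ratio was 595-fold higher, with a 95% exact interval of 448 to 880 that covers counting error only.

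NCB2 moved from mostly spliced to almost fully unspliced. It had 306, 312 and 460 spliced reads and 110, 152 and 181 unspliced reads in WT. In prp2-1 it had 32, 36 and 28 spliced reads and 2590, 3113 and 5236 unspliced reads. The spliced reads fell in every library while the unspliced reads multiplied, most of all in replicate C. The unspliced percent was 98.8%, 98.9% and 99.5% (99.0% ± 0.377), and the log2 change of the ratio was 8.05 (SE 0.41; adjusted p = 7.16e-15, edgeR).

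USV1 kept almost no spliced RNA in prp2-1. The WT libraries had 589, 701 and 738 spliced reads and 443, 546 and 704 unspliced reads. The prp2-1 libraries had 0, 0 and 3 spliced reads and 1052, 1972 and 4847 unspliced reads. The unspliced percent was 100%, 100% and 99.94%, with exact 95% lower bounds of 99.6%, 99.8% and 99.8% for the single libraries. Its log2 change, 11.52 (SE 0.45; adjusted p = 1.76e-15, edgeR), was the second largest of 274 and rests on 3 spliced reads, with an exact counting interval of the fold of 1071 to 15262. Without prp2-1 replicate C no spliced read was left, and the fitted 13.75 is then no bound. In 1 draw of 800000 reads per library, described below, the log2 change was 9.63. At that depth, 13 of 15 draws of prp2-1 held no spliced USV1 read.

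GCR1, the transcriptional activator of glycolytic genes, started highest and could gain least in percent. It had 317, 378 and 536 spliced reads and 465, 554 and 775 unspliced reads in WT. In prp2-1 it had 1, 3 and 6 spliced reads and 148, 148 and 225 unspliced reads. Both forms were scarcer in prp2-1, the spliced one far more so. The unspliced percent was 99.3%, 98.0% and 97.4% (98.2% ± 0.984), a gain of 38.9 percentage points and a log2 change of 5.14 (SE 0.46; adjusted p = 2.05e-10, edgeR). This change lay near the middle of all introns, at rank 109 of 274. Its counting interval, 19.2-fold to 75.3-fold, was wide because 10 spliced reads were left in 3 libraries.

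TAF14 and SRB2 kept the most spliced RNA. TAF14 had 1484, 1602 and 1966 spliced reads and 177, 212 and 227 unspliced reads in WT, and 305, 497 and 336 spliced reads and 723, 1064 and 1161 unspliced reads in prp2-1. Its unspliced percent rose to 70.3%, 68.2% and 77.6% (72.0% ± 4.92), with replicate C highest. The log2 change was 4.41 (SE 0.22; adjusted p = 1.30e-11, edgeR), close to the median over all introns.

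SRB2 changed least. It had 374, 423 and 532 spliced reads and 266, 281 and 309 unspliced reads in WT. In prp2-1 it had 157, 225 and 207 spliced reads and 315, 419 and 493 unspliced reads. About 1 in 3 of its reads was therefore still spliced in the mutant, and the unspliced percent was 66.7%, 65.1% and 70.4% (67.4% ± 2.75). Its range overlapped that of TAF14, while both lay below the range of every other member. The log2 change of 1.67 (SE 0.14; adjusted p = 6.14e-05, edgeR) was the nineteenth smallest of 274. From summed reads the ratio was 3.19-fold higher, with an exact counting interval of 2.83 to 3.69.

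The members were then compared with each other and with the typical intron, within each library, by the log2 ratio with a pseudocount of 0.5. For 14 of the 15 pairs of members, the difference between the 2 members took non-overlapping values in WT and prp2-1. These pairs reached p = 0.1 in an exact two-sided permutation test, the smallest that 3 against 3 libraries allow. The adjusted p of this permutation test was 0.107 over 15 pairs, so none can pass the threshold. The same count was not made over pairs of all tested introns, so 14 of 15 cannot be called particular to the members. The widest gap was between SRB2 and USV1, where SRB2 changed by -9.75 log2 units relative to USV1 (SE 0.57). The ratio of TFC3 rose by 7.52 more than that of SRB2 (SE 0.36). TFC3 rose by 1.15 more than NCB2 (SE 0.46). The pair that overlapped was TAF14 and GCR1, where TAF14 changed by -0.77 relative to GCR1 (SE 0.60; exact permutation p = 0.4). Against the median intron of the same library, USV1, TFC3 and NCB2 rose by 6.89, 4.65 and 3.50 log2 units more (SE 0.62, 0.40 and 0.24) and SRB2 by 2.86 less, written as -2.86 (SE 0.11), each with an exact permutation p = 0.1 (adjusted p = 0.12 over 6 members). TAF14 differed from the median intron by -0.13 (SE 0.05, exact permutation p = 0.1) and GCR1 by 0.64 (SE 0.59, exact permutation p = 0.4). The sign of TAF14 turned in 1 draw of 800000 reads per library, described below.

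**Figure D3:**
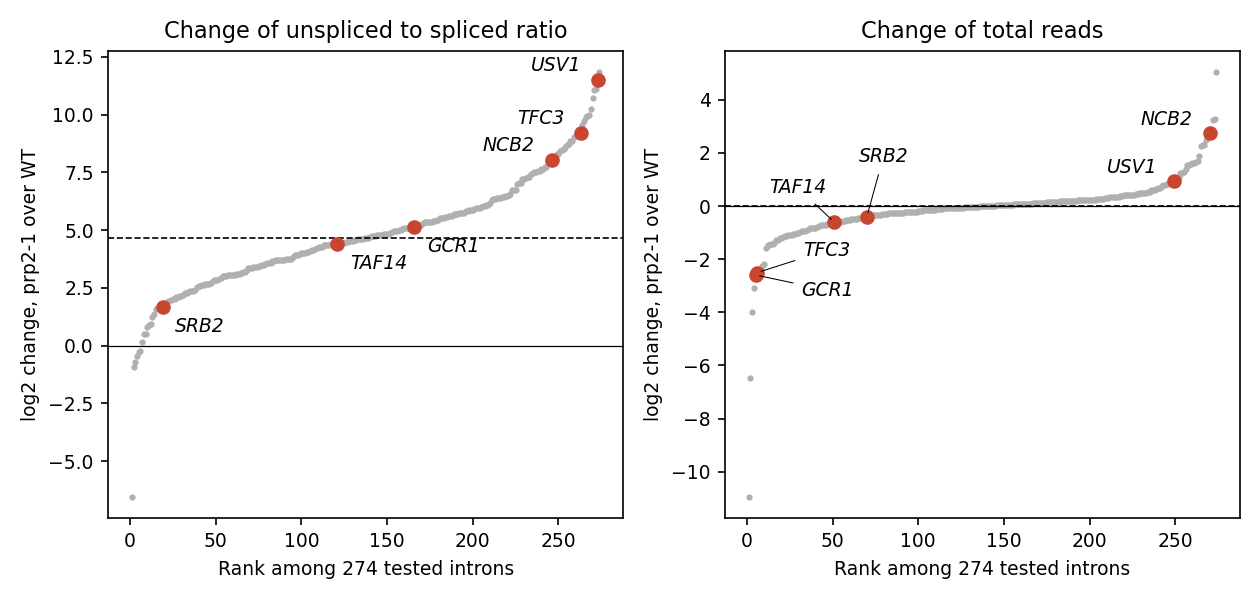
The log2 change from WT to prp2-1 (vertical axis) of the unspliced to spliced ratio (left) and of total reads (right), with the 274 tested introns in rank order (horizontal axis). Red points are the 6 named genes and the dashed line is the median of all introns; the members spread from 1.67 (SRB2) to 11.52 (USV1) in the ratio and from -2.59 (GCR1) to 2.75 (NCB2) in total reads.

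The next comparison took the 2 read types apart, each in RPM, the reads per 1000000 reads of a library after scaling by the trimmed mean of M values (TMM) of total reads, so that values are relative to all targeted introns. These reads depend on each primer and are compared between libraries for 1 intron, not between introns. In bulk RNA, fewer cells with a transcript and less of it per cell cannot be told apart. Spliced reads fell in all 6 members (edgeR, adjusted p under 0.05), where 57.7% of all tested introns fell, and no member was among the 6.20% that rose. The median log2 change of spliced reads was -4.91 over the members and -0.91 over all tested introns. It was -2.63 over the 171 tested introns of genes other than ribosomal protein genes, the closer comparison for these members. The fall was smallest in SRB2, from 216 ± 9.16 to 88.0 ± 3.60 spliced RPM, or 2.45-fold (adjusted p = 2.57e-05, edgeR). TAF14 fell 4.88-fold, from 825 ± 64.6 to 169 ± 21.8, and NCB2 12.0-fold, from 174 ± 16.5 to 14.6 ± 2.49. TFC3 fell 75.0-fold, from 745 ± 52.0 to 10.0 ± 2.79. GCR1 went from 198 ± 13.0 to 1.46 ± 1.09 spliced RPM and USV1 from 333 ± 35.1 to 0.444 ± 0.769, both too few in prp2-1 for a close estimate of the fold. Their log2 changes were -7.00 and -9.36, and -7.69 and -12.46 without prp2-1 replicate C, where USV1 kept no spliced read.

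Unspliced reads did not follow a single course. They rose in 4 members, NCB2, TFC3, TAF14 and USV1, where 90.9% of all tested introns rose, and fell in 1, GCR1, where 2.19% fell (edgeR, adjusted p under 0.05). In NCB2 they went from 66.6, 75.7 and 71.7 RPM in WT to 1401, 1205 and 2326 in prp2-1, a 23.0-fold rise (adjusted p = 5.57e-47, edgeR). All prp2-1 libraries stood far above WT, with replicate C highest. In TFC3 they went from 16.0 ± 5.65 to 124 ± 39.7 RPM, 7.86-fold, and in TAF14 from 101 ± 9.52 to 440 ± 66.8, 4.36-fold. In USV1 they were 268, 272 and 279 in WT and 569, 763 and 2153 in prp2-1, a 4.25-fold rise whose size leaned on replicate C (log2 change 2.09, and 1.29 without prp2-1 replicate C). SRB2 had 161, 140 and 122 unspliced RPM in WT and 170, 162 and 219 in prp2-1. These groups did not overlap, by a narrow gap between 161 and 162 RPM, and the share of all tested introns without overlap was not counted. The log2 change of 0.38 did not pass the test (adjusted p = 0.201, edgeR). It passed when the scaling used introns outside ribosomal protein genes alone (log2 change 0.49, adjusted p = 0.0199, edgeR).

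GCR1 was thus the member in which unspliced RNA was lost as well. Its unspliced reads were 282, 276 and 307 RPM in WT and 80.0, 57.3 and 99.9 in prp2-1. Every prp2-1 library lay below every WT library, and the log2 change was -1.87 (SE 0.24; adjusted p = 9.78e-10, edgeR), the third lowest of 274.

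**Figure D4:**
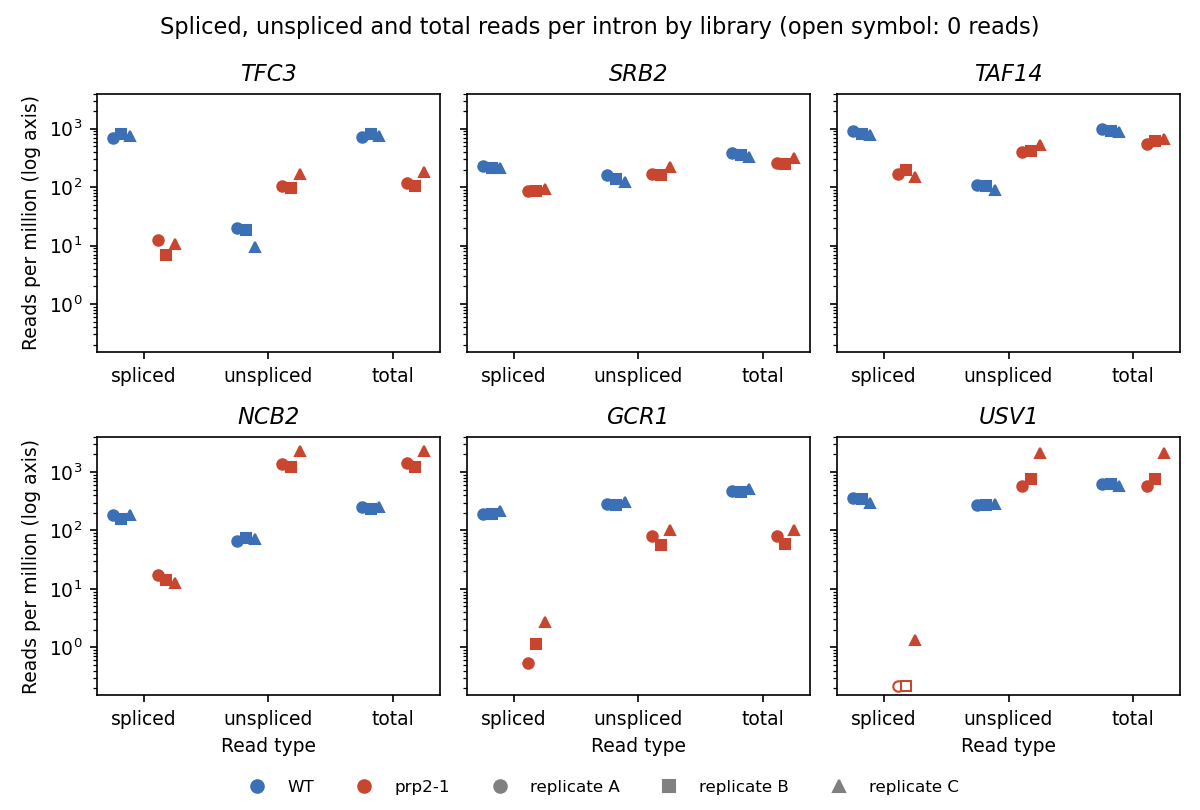
Spliced, unspliced and total reads in RPM (vertical log axis) at each intron, by read type (horizontal axis). Each symbol is 1 library, blue for WT and red for prp2-1, and open symbols at the bottom mark libraries with 0 reads; unspliced reads of NCB2 rose to between 1205 and 2326 RPM in prp2-1, and those of GCR1 fell to between 57.3 and 99.9.

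Total reads, both forms together, went in opposite directions in different members. They fell in 3 of 6 (GCR1, TFC3 and TAF14) and rose in 1 (NCB2), against 23.7% lower and 19.7% higher among all tested introns (edgeR, adjusted p under 0.05). The median log2 change was -0.50 over the members, -0.004 over all tested introns and -0.15 over those outside ribosomal protein genes. GCR1 had 474, 464 and 519 total RPM in WT and 80.6, 58.4 and 103 in prp2-1, 6.03-fold lower (log2 change -2.59, SE 0.24; adjusted p = 1.56e-05, edgeR). TFC3 had 711, 813 and 758 in WT and 118, 104 and 180 in prp2-1, 5.67-fold lower (log2 change -2.50, SE 0.25; adjusted p = 1.58e-05, edgeR). These were the fifth and the sixth lowest changes of 274. Both genes kept a clear gap between the groups.

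NCB2 had 252, 231 and 254 total RPM in WT and 1418, 1219 and 2338 in prp2-1, 6.75-fold higher (log2 change 2.75, SE 0.29; adjusted p = 1.56e-05, edgeR). This was the fifth highest change of 274, with nearly all of the reads in prp2-1 unspliced. TAF14 had 1006, 903 and 869 in WT and 556, 604 and 665 in prp2-1, 1.52-fold lower (log2 change -0.61, SE 0.10; adjusted p = 0.00758, edgeR). SRB2 had 388, 350 and 333 in WT and 255, 249 and 311 in prp2-1. Its groups did not overlap either, which 30.7% of tested introns showed in this direction, but the log2 change of -0.39 did not pass (adjusted p = 0.0781, edgeR). It passed with DESeq2 (adjusted p = 0.0490) and without prp2-1 replicate C (log2 change -0.50, adjusted p = 0.0103, edgeR).

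USV1 was the member whose groups overlapped in total reads, with 625, 621 and 571 RPM in WT and 569, 763 and 2154 in prp2-1. The log2 change of 0.94 (SE 0.58) did not pass the test (adjusted p = 0.0925, edgeR), and 1 library decided its size. Without prp2-1 replicate C it was 0.14 (adjusted p = 0.437, edgeR), without prp2-1 replicate A 1.27 (adjusted p = 0.00815, edgeR), and with scaling to introns outside ribosomal protein genes 0.97 (adjusted p = 0.0376, edgeR). Replicate C also had the largest unspliced share over all introns among the prp2-1 libraries, 11.0%. For each of the 6 members it had more total RPM than the other prp2-1 libraries. The same count was not made over all tested introns, so this order cannot be called particular to the members.

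Among placed introns outside ribosomal protein genes, sequence classes gave the following description, with no test, since introns are not replicates. The 121 tested introns with an exact TACTAAC had a median log2 change of the ratio of 5.24, and the 32 with 1 mismatch had 5.73. SRB2 was the single tested intron of this set with TGCTAAC, and other introns with 1 mismatch reached 10.73. Intron 1 of RPL7A and intron 1 of RPL7B also held TGCTAAC but, as ribosomal protein introns, were not in these classes. Whether the branch site bears on the small change of SRB2 was not tested. The 34 introns that did not begin with GTATGT had a median of 42.8% unspliced in WT, beside 7.39% for the 123 that did. Among the 34 were HAC1, whose intron is removed by another pathway, and COX5B, YHL050C, YJR079W and YNL050C. None of these introns had a spliced read in any library, and the medians were not taken without them. GCR1 (59.3%) was above the median of its class. The 18 introns of at least 300 bases, YHL050C and YJR079W among them, had a median log2 change of 3.85. It was 5.71 for the 139 shorter ones, and GCR1 at 5.14 lay between these medians.

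The introns with the pattern nearest to each member were found by the root mean square distance of the log2 ratios over the 6 libraries. Nearest to TFC3 were MRK1 (distance 0.83) and IST1 (1.01), and nearest to SRB2 were URA2 (0.39) and RPL2B (0.65). URA2 went from 45.1% ± 5.23 to 73.2% ± 0.609 unspliced, much like SRB2. TAF14 was nearest to ERV1 (0.45) and to snR17a (0.57), a U3 small nucleolar RNA gene. NCB2 was nearest to MRX20 (0.54) and HPC2 (0.58), yet total reads of these genes fell (log2 change -0.54 and -0.65, adjusted p = 0.0363 and 0.0286, edgeR) while those of NCB2 rose. GCR1 was nearest to SCS22 (0.95) and PCH2 (1.11), whose total reads rose (0.74 and 1.09, adjusted p = 0.00478 and 0.0230, edgeR) while those of GCR1 fell. USV1 was nearest to SRC1 (0.80), which went from 54.7% ± 4.13 to 99.97% ± 0.0342, and then to REC114 (2.26), a meiotic gene with 9 spliced reads in all WT libraries. Total reads of snR17a (1.87) also rose while those of TAF14 fell. Those of RPL2B (1.53), SRC1 (2.83) and REC114 (5.05) rose where those of SRB2 and USV1 did not pass. Total reads of MRK1 (-3.99) and IST1 (-1.10) fell, as did those of TFC3 (each neighbour with adjusted p under 0.05, edgeR). A like ratio thus often went with unlike total reads, and not in NCB2 and GCR1 alone.

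Other transcription genes in the table gave a wider view. The list held 10 genes with 12 introns, of which 11 were tested and 9 rose in the ratio (edgeR, adjusted p under 0.05), with a median log2 change of 6.06. This share is not above the 93.4% of all tested introns called higher. IWR1, which acts in nuclear import of RNA polymerase II, went from 30.8% ± 1.56 to 99.5% ± 0.244 unspliced. RPO26, a subunit shared by all 3 nuclear RNA polymerases, went from 6.02% ± 1.02 to 83.5% ± 6.97. KIN28, the kinase of TFIIH, was 94.5% ± 1.64 unspliced in WT and 99.90% ± 0.0909 in prp2-1. ARP9, of the SWI/SNF and RSC remodelers, went from 4.66% ± 0.736 to 97.3% ± 0.789.

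Intron 1 of SUS1, of the SAGA coactivator, went from 33.5% ± 1.86 to 96.3% ± 1.10 and intron 2 from 17.8% ± 1.41 to 95.05% ± 2.61. HPC2, of the HIR nucleosome assembly complex, went from 22.2% ± 3.27 to 99.5% ± 0.780, and VPS75, a histone chaperone, from 7.18% ± 1.19 to 65.2% ± 4.87. PHO85, the kinase that acts on the regulator of phosphate genes, went from 11.2% ± 1.22 to 88.9% ± 4.35. The tested introns that did not pass were HMRA1 intron 1, with 9 reads left in prp2-1, and HAC1, whose intron is removed by another pathway and which had 0 spliced reads in both groups. Total reads rose in 1 of the 11 introns, KIN28 (log2 change 1.24, adjusted p = 0.000605, edgeR), and fell in 5, those of ARP9 (-1.01), PHO85 (-0.83), HPC2 (-0.65), VPS75 (-0.62) and HMRA1, where 19.7% of all tested introns rose and 23.7% fell. Unspliced reads rose in 9 of the 11 introns, fell in HMRA1 and did not pass in HAC1, where 90.9% of all tested introns rose.

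The authors also deposited counts from random draws of 200000, 400000 and 800000 reads per library, 5 draws at each depth, which show what fewer reads would have left of these introns. Draws of 1 library share reads and are not replicates. In prp2-1, spliced GCR1 reads were absent from 12 of 15 draws at 200000 reads, from 10 at 400000 and from 6 at 800000. Spliced USV1 reads were absent from 14, 13 and 13 of 15 draws at these depths. Those of TFC3 were absent from 6, 2 and 0, and those of NCB2 from 2, 0 and 0. SRB2 and TAF14 had spliced reads in every draw, from 8 to 63 and from 13 to 104.

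SRB2 in prp2-1 gave mean percentages of 66.9%, 69.3% and 67.9% at the 3 depths, although single draws of 200000 reads ranged from 53.8% to 80.0%. USV1 in WT gave 41.3%, 40.9% and 41.6%, below the 45.2% ± 3.18 of the full counts, and its spliced reads in the deepest draws were 1.10 times those its full count and the library totals would give. For the other members this ratio lay between 0.917 and 0.994 for either read type. USV1 and GCR1 were the members whose WT percent moved by more than the SD over libraries at every depth. The move of GCR1 was small, from 59.3% ± 0.195 to 60.1%, 59.9% and 59.9%.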

How the data were processed

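MPE-seq libraries of 3 WT and 3 prp2-1 replicates were used. The values are raw counts of spliced and unspliced reads per intron as deposited by the authors, with no normalization. Per the submitters' processing notes, fastp 0.19.5, HISAT2 2.2.1, SAMtools and genome build R64 were used. The sources used here do not give the rule that assigned reads to a form or any use of molecular identifiers, so intervals cover counting error only. In the table of drawn reads, the 2 header names for depth and draw number were swapped back, because the totals rise with the column named as the draw's seed.

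Of 309 introns, 274 with a mean of at least 10 reads per library were tested, and 35 were set aside. All 6 members passed. The ratio was tested with edgeR 4.0.16 (R 4.3.3, quasi-likelihood) with terms for library, read type and read type by genotype. Total, unspliced and spliced reads were tested by genotype with TMM factors of total reads. P-values were Benjamini-Hochberg adjusted over 274 introns, with a threshold of 0.05. Printed SEs come from the spread of the libraries' log2 values (for ratios, with a pseudocount of 0.5), not from the fit. DESeq2 1.42.0 and limma 3.58.1 were alternatives, and the scripts were tested on simulated data. Introns were placed from the coding exons of R64 where the table and the annotation held equally many for a gene. Of equally near branch site matches, the one nearest the 3′ end was taken. The named genes are the 6 members, the 2 introns nearest in pattern to each, and all listed transcription genes. The members and lists were chosen with earlier results of these data known.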

Additional observations from a re-analysis of the deposited data

How the results depend on the processing

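The calls of the ratio (6 of 6 members higher) and of spliced reads (6 of 6 lower) held in every alternative with a test. These were DESeq2, no filter on low counts, the drawn table, other scalings for reads and limma for the ratio. The others were the replicate block and leaving out each library. The drawn table was 1 draw of 800000 reads per library, so the spread over draws was not covered. For total reads, 2 members instead of 1 were called higher when scaled to introns outside ribosomal protein genes, and 1 to 2 without single libraries, the second being USV1. That scaling moved the median log2 change of total reads over all introns from -0.004 to 0.11, and introns called higher in spliced reads from 17 to 11. Over all tested introns, leaving out single libraries gave 33 to 50 called higher in total reads, 7 to 17 higher in spliced reads and 0 to 1 lower in the ratio, where limma called 1 lower with either pseudocount. The change of TAF14 against the median intron turned from -0.13 to 0.18 in the drawn table. The causes were not tested. Replicates of the 2 groups share a letter, but nothing in the labels pairs them. Deviations of the log2 ratio correlated at 0.0924, 0.205 and 0.272 for A, B and C, and each library correlated best with its own letter. This is a hint from the data and not the design. It was not seen in log2 total reads, at 0.276, -0.0637 and 0.0230, where WT replicate B correlated best with prp2-1 replicate C (0.232). With the replicate block, 258 introns were called higher in the ratio and 59 in total reads, against 256 and 54, and no member's call changed. Few spliced reads limit the folds of GCR1 (10 reads in prp2-1) and USV1 (3 reads).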
